A study of Mus musculus with 12 samples.

Results

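The genes described here are 10 imprinted genes of growth and placenta, H19, Igf2, Cdkn1c, Peg3, Peg10, Phlda2, Ascl2, Grb10, Dlk1 and Meg3, followed in mouse embryonic stem cells (ESCs) over 6 days of Ino80 knockdown. They were listed by name, but with earlier results of these data already known, so counts of them are a description. All 10 were on the array, with 22 of its 41174 probes. All 10 were also among the 19184 genes kept for testing, with 21 probes that passed the filter, which asks that both arrays of some group be well above background. A gene is represented by its brightest kept probe, and for each of the 10 genes it was well above background on all 12 arrays.

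The cells were J1, a mouse ESC line, infected with a lentivirus that delivered a short hairpin RNA, either a non-targeting one (shNT) or one directed at Ino80 (shIno80), the gene of the ATPase of a chromatin remodelling complex. RNA was taken after 48, 96 and 144 hours, called days 2, 4 and 6, and hybridised to 12 one-colour Agilent arrays, 2 for each hairpin and day. shNT of the same day is the control of each shIno80 group. All 6 groups share the J1 line, the viral delivery and, per the labels, the M15 medium used at infection. The labels name 1 agent per arm, so an effect of the hairpin other than on Ino80 cannot be told apart from the knockdown. The series design lists the arrays of a group as biological replicates, but nothing says how the cultures were grown, and p-values therefore rest only on how much these arrays differed, which may be technical in part. The sample descriptions speak of transfection where the series design speaks of infection.

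An imprinted gene is expressed mainly from the allele inherited from 1 parent, under DNA methylation that is set in the germ line and kept through the divisions of the early embryo. Paternally expressed members such as Igf2, Peg3, Peg10 and Dlk1 tend to promote fetal or placental growth, while maternally expressed ones such as H19, Cdkn1c, Phlda2 and Grb10 tend to restrain it. ESCs carry these imprints and can lose them in culture. The arrays do not separate the alleles.

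The promoters of 4 members are shown because these genes changed at day 6, had a single window in the promoter table and did not all move one way: Ascl2, Dlk1 and Peg3 rose and Phlda2 fell. Each window holds the 250 bases before the transcription start, 5′ to 3′ on the gene's strand, from RefSeq on GRCm38.p6. CpG dinucleotides, where DNA can be methylated, are in capitals. Methylation was not measured, and the windows were not chosen as regions that carry an imprint. The windows are chr7:142969265-142969514 (minus strand) for Ascl2, chr12:109452573-109452822 (plus strand) for Dlk1, chr7:6730420-6730669 (minus strand) for Peg3 and chr7:143502525-143502774 (minus strand) for Phlda2.
Ascl2: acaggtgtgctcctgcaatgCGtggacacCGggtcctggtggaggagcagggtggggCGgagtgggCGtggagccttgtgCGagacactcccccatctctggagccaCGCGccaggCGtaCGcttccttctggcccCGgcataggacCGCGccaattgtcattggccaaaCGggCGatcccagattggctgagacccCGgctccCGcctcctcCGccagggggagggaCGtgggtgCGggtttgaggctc
Dlk1: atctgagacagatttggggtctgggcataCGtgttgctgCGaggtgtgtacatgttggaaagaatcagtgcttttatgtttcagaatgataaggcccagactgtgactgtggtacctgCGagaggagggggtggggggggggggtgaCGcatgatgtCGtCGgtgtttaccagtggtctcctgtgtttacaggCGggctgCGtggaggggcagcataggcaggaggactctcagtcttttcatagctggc
Peg3: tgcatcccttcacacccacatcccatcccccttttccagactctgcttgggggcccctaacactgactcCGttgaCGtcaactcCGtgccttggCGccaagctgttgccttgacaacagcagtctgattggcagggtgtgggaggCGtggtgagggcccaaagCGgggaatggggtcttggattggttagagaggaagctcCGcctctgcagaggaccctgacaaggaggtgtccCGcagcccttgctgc
Phlda2: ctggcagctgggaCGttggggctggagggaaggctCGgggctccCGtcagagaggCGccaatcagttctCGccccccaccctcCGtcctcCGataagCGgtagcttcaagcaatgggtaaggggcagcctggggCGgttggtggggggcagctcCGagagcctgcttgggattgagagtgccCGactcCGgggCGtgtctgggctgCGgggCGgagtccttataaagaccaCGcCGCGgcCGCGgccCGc

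The Ascl2 window held 19 CpGs and the Phlda2 window 21, against 8 each for Dlk1 and Peg3 and a median of 6 over 32851 promoter windows of that length. Ascl2 and Phlda2, which are close in CpG count, moved in opposite directions, and a link between CpG count and change was not tested. The table held 12 windows for 7 of the members: the other CpG counts were 1, 10, 22 and 6 for Igf2, 40 and 8 for Grb10, and 10 and 0 for Meg3. The table did not pair H19, Cdkn1c or Peg10 with a window. Motifs were searched on both strands, and none of them contains another. TGCCGC, the letters read by the imprint-protecting zinc finger protein ZFP57, occurred in the 12 windows 1 time, in Meg3, and in 8.68% of all windows. GCCATNTT, the core read by YY1, a partner of the INO80 complex, was in none of the 12 and in 3.91% of all windows. TATAAA occurred 1 time in Phlda2 and 2 times in Meg3, and in 12.4% of all windows.

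Ino80 itself was lower in shIno80, with log2 differences of -1.99, -2.30 and -2.09 at days 2, 4 and 6 (limma adjusted p = 0.000779, 2.55e-05 and 2.62e-05), with the samples of the arrays taken from the columns of the deposited value table. The day 2 call ended with the 4 arrays of day 2 alone (limma adjusted p = 0.1) and with normexp background correction (-1.65, limma adjusted p = 0.118). The scanner files of 6 of the 12 arrays are attached to another sample than the value table's column. With samples by those attachments, no member was called on any day, and Ino80 differed by 0.12, 0.16 and 0.19. The correlation across kept probes was 0.9905 to 0.9941 between arrays of one group and 0.924 to 0.987 between arrays of different groups. Each slide held the 4 arrays of 1 day, with each group at the same positions, so that an effect of position cannot be told apart from one of the group.

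The 10 genes moved in both directions, and more of them differed at the later days. Values below are log2 signals relative to the 75th percentile of their array, and fold changes are shIno80 minus shNT on that scale with their SE, with 2 arrays in each group. A gene was called higher or lower at a limma adjusted p under 0.05 over all 19184 genes. At day 2, 1 member was called higher and 1 lower, with 6.29% and 6.2% of all genes. At day 4, 5 were called higher and 2 lower, with 20.9% and 21.3% of all genes. At day 6, 6 were called higher and 2 lower, with 21.0% and 29.5% of all genes. The median member differed by 0.17, 0.36 and 1.32 at days 2, 4 and 6, beside 0.02, -0.05 and -0.14 for all genes. With the deposited value table in place of the scanner intensities, 62.0% of the calls over all genes at day 6 were higher, against 41.6% here. The samples are bulk RNA, in which fewer cells of a type and less RNA per cell cannot be told apart.

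**Figure D1:**
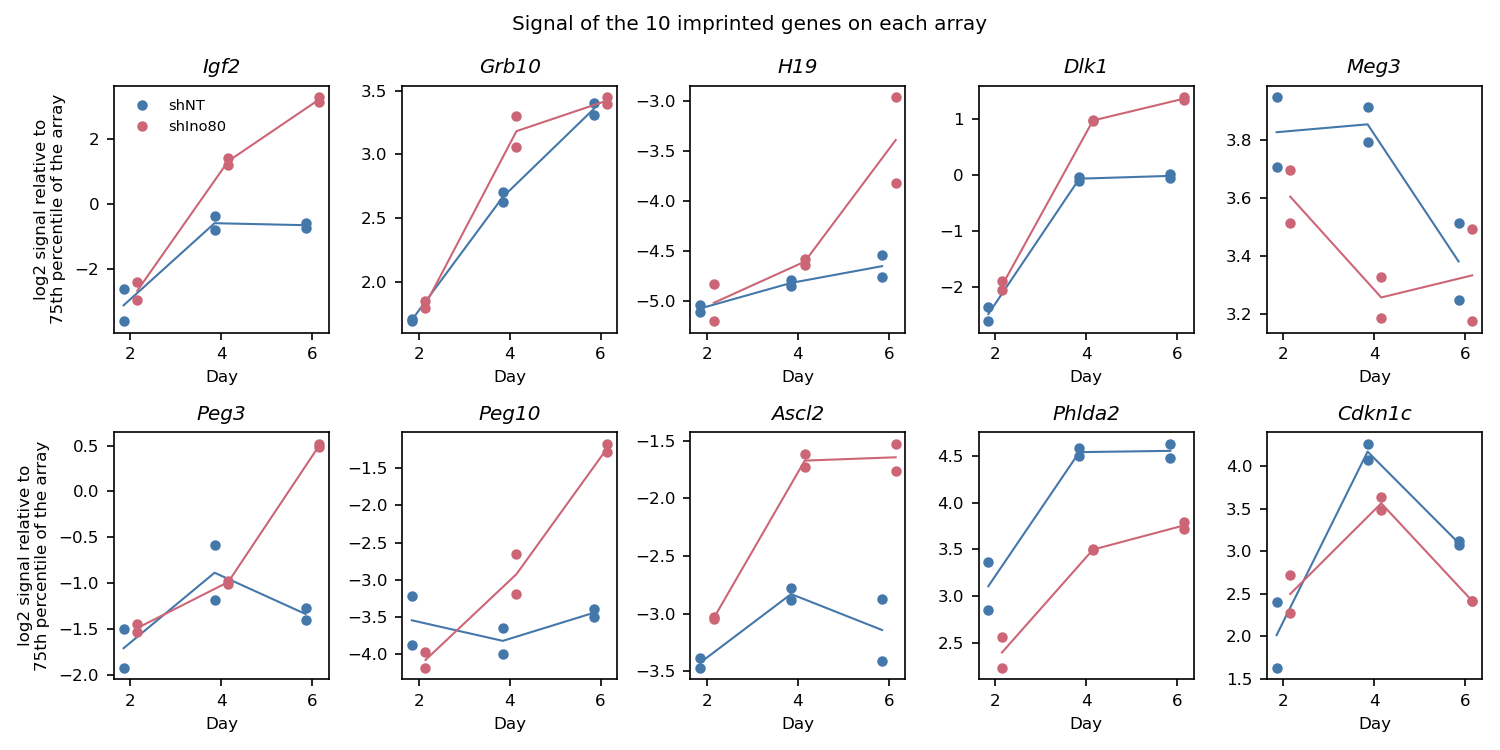
Signal of each member on each of the 12 arrays (log2, relative to the 75th percentile of the array) by day, with shNT in blue and shIno80 in red. Points are arrays and lines join group means. Igf2 in shIno80 reaches 3.13 and 3.27 at day 6, while both shNT arrays lie below 0, and Phlda2 lies lower in shIno80 on each day.

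Igf2, the fetal insulin-like growth factor, had the largest difference of the members at days 4 and 6. Its probe lies at chr7:139078075-139078135 on mm7, the build of the array's annotation. In shNT it read -3.59 and -2.61 at day 2, -0.80 and -0.37 at day 4 and -0.72 and -0.57 at day 6. In shIno80 it read -2.93 and -2.38, 1.20 and 1.42, and 3.13 and 3.27 at the same days. The ranges overlapped at day 2 and lay apart at days 4 and 6, with shIno80 higher. The difference was 0.44 ± 0.32 at day 2 (limma adjusted p = 0.443). It was 1.90 ± 0.32 at day 4, or 3.73-fold (limma adjusted p = 0.00168), and 3.85 ± 0.32 at day 6, or 14.4-fold (limma adjusted p = 3.16e-05). From low to high the groups ran shNT day 2, shIno80 day 2, shNT day 6, shNT day 4, shIno80 day 4 and shIno80 day 6. Day 2 of both hairpins overlapped, as did days 4 and 6 of shNT, and the upper 2 groups stood apart from all others. The second probe differed by 1.86 at day 4 and 3.76 at day 6 and was called at both. Without shNT replicate 1 of day 2, the difference at day 2 was -0.05.

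H19, a non-coding RNA transcribed next to Igf2 from the maternal allele, differed later and by less. The day 2 arrays gave -5.11 and -5.04 for shNT, and -5.21 and -4.84 for shIno80, which overlapped. The day 4 arrays gave -4.79 and -4.85 for shNT, and -4.58 and -4.64 for shIno80, which lay apart. At day 6 it read -4.54 and -4.76 in shNT and -3.82 and -2.96 in shIno80, which stood apart from every other group. The 2 shIno80 arrays of day 6 were the least alike of any H19 group. The difference was 0.06 ± 0.25 at day 2, 0.21 ± 0.25 at day 4 (limma adjusted p = 0.542) and 1.26 ± 0.25 at day 6, or 2.40-fold (limma adjusted p = 0.00338). Leaving out 1 array at a time gave 0.83, without shIno80 replicate 2 of day 6, to 1.69, without replicate 1, and the gene was called each time. A second H19 probe, well above background on 6 of 12 arrays, passed the filter only through shIno80 at day 6. Its difference there, 1.01 ± 0.41, is therefore a description. It was not called, and its groups overlapped.

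Cdkn1c, a maternally expressed inhibitor of cyclin-dependent kinases, rose from day 2 to day 4 under both hairpins and was lower in shIno80 at day 6, at the edge of the threshold. It read 1.63 and 2.40 in the day 2 control arrays, then 4.08 and 4.27 at day 4 and 3.08 and 3.12 at day 6. With shIno80 the corresponding arrays gave 2.27 and 2.72, then 3.64 and 3.49, then 2.42 and 2.41. The hairpins overlapped at day 2 and were apart at days 4 and 6. The difference was 0.49 ± 0.24 at day 2 (limma adjusted p = 0.253), -0.61 ± 0.24 at day 4 (limma adjusted p = 0.0757) and -0.68 ± 0.24 at day 6 (limma adjusted p = 0.0439). Leaving out any 1 of the 8 arrays of days 4 and 6 ended the day 6 call, at -0.71 to -0.66 and limma adjusted p of 0.0598 to 0.131. The value table (-0.45, limma adjusted p = 0.0683) and no filter on dim probes (limma adjusted p = 0.078) ended it too. The day 4 difference became a call without either shNT array of day 2 (limma adjusted p = 0.0157), with median scaling (-0.75, limma adjusted p = 0.0431), with the value table (limma adjusted p = 0.0251), with the 4 arrays of day 4 alone (limma adjusted p = 0.0199) and, in an alternative chosen after seeing the data, with normexp after replacing outlying backgrounds (limma adjusted p = 0.0328). Without shNT replicate 2 of day 2 the gene was called higher at day 2, by 0.87, and without replicate 1 the day 2 difference was 0.099. Its groups, from low to high, were shNT day 2, shIno80 day 6, shIno80 day 2, shNT day 6, shIno80 day 4 and shNT day 4. shIno80 day 2 overlapped both groups below it, and the upper 3 stood apart.

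Phlda2, a maternally expressed gene that limits placental growth and lies in the same cluster as Cdkn1c, was the one member lower in shIno80 on each day by the test. The gene read 2.85 and 3.36 in the day 2 control arrays, then 4.49 and 4.59 at day 4 and 4.48 and 4.63 at day 6. The shIno80 arrays of these days gave 2.23 and 2.56, then 3.50 and 3.49, then 3.80 and 3.72. The hairpins were apart on each day, and only days 4 and 6 of shNT overlapped in the order of the groups. It fell by 0.71 ± 0.18 at day 2 (limma adjusted p = 0.0363), by 1.04 ± 0.18 at day 4 (limma adjusted p = 0.0018) and by 0.80 ± 0.18 at day 6 (limma adjusted p = 0.00575). Its second probe was called lower at days 4 and 6 and differed by -0.63 at day 2 (limma adjusted p = 0.0819). The day 2 call ended without any 1 of 11 arrays, all but shNT replicate 1 of day 2 (limma adjusted p of 0.0524 to 0.165), and the difference was -0.46 without shNT replicate 2 of that day. It also ended with median scaling (limma adjusted p = 0.0533), with probes averaged per gene (limma adjusted p = 0.0527), with no filter on dim probes (limma adjusted p = 0.0758) and with the 4 arrays of day 2 alone (limma adjusted p = 0.265).

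Ascl2, a transcription factor of trophoblast precursors that is expressed from the maternal allele in the placenta, rose in shIno80 from day 4. Its signal was -3.38 and -3.47 in the day 2 control arrays, then -2.78 and -2.88 at day 4 and -2.88 and -3.41 at day 6. With shIno80 the corresponding arrays gave -3.03 and -3.05, then -1.73 and -1.61, then -1.76 and -1.52. The hairpins were apart on each day. The difference was 0.39 ± 0.17 at day 2 (limma adjusted p = 0.194), 1.16 ± 0.17 at day 4 (limma adjusted p = 0.000875) and 1.50 ± 0.17 at day 6 (limma adjusted p = 0.000172), 2.83-fold. shIno80 at days 4 and 6 overlapped each other and stood above the other 4 groups, of which shNT day 6 overlapped each of the rest.

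Peg10, a paternally expressed gene derived from a retrotransposon and needed for the placenta, was called higher in shIno80 at days 4 and 6. The values were -3.21 and -3.88 in the day 2 control arrays, then -3.64 and -4.00 at day 4 and -3.50 and -3.39 at day 6. The shIno80 arrays of these days gave -3.97 and -4.19, then -2.66 and -3.19, then -1.28 and -1.17. The hairpins were apart on each day, with shIno80 lower at day 2 and higher at days 4 and 6. The difference was -0.53 ± 0.25 at day 2 (limma adjusted p = 0.222), 0.90 ± 0.25 at day 4 (limma adjusted p = 0.0197) and 2.22 ± 0.25 at day 6 (limma adjusted p = 0.000164), 4.66-fold. The day 2 difference was -0.20 without shNT replicate 1 and -0.87 without shNT replicate 2 of that day, and was not called in either case. The day 4 call ended without shNT replicate 2 (0.72, limma adjusted p = 0.117) or shIno80 replicate 1 (0.63, limma adjusted p = 0.127) of that day, and under quantile normalization (0.76, limma adjusted p = 0.0523). From low to high, shIno80 day 2, shNT day 4, shNT day 2 and shNT day 6 each overlapped the next, and shIno80 day 4 and then day 6 stood above them.

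Peg3, a paternally expressed zinc finger gene, rose at day 6. It read -1.49 and -1.92 in the day 2 control arrays, then -0.58 and -1.19 at day 4 and -1.40 and -1.27 at day 6. With shIno80 the corresponding arrays gave -1.53 and -1.44, then -0.97 and -1.001, then 0.48 and 0.52. The hairpins overlapped at days 2 and 4, and shIno80 at day 6 stood apart from every other group. The difference was 0.22 ± 0.20 at day 2, -0.10 ± 0.20 at day 4 (limma adjusted p = 0.732) and 1.83 ± 0.20 at day 6 (limma adjusted p = 0.000151), 3.56-fold. Without shNT replicate 1 of day 4 the day 4 difference was 0.20. A second probe was also called at day 6, by 1.51, and the remaining one was above background on 0 arrays.

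Dlk1, a paternally expressed transmembrane protein related to the NOTCH ligands, was called higher on each day. The gene read -2.60 and -2.34 in the day 2 control arrays, then -0.03 and -0.10 at day 4 and 0.02 and -0.06 at day 6. The shIno80 arrays of these days gave -2.04 and -1.89, then 0.98 and 0.95, then 1.33 and 1.38. The hairpins were apart on each day, and among all 6 groups only days 4 and 6 of shNT overlapped. It rose by 0.50 ± 0.11 at day 2 (limma adjusted p = 0.0257), 1.03 ± 0.11 at day 4 (limma adjusted p = 0.000188) and 1.37 ± 0.11 at day 6 (limma adjusted p = 3.21e-05). The day 2 call ended without shNT replicate 1 (0.37), shIno80 replicate 1 (0.58) or shIno80 replicate 2 (0.43) of that day, and with median scaling, no filter on dim probes or the 4 arrays of day 2 alone (limma adjusted p = 0.0958, 0.0601 and 0.271). The second Dlk1 probe was called at days 4 and 6, by 1.00 and 1.30, but not at day 2 (0.28, limma adjusted p = 0.285).

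Meg3, the maternally expressed non-coding RNA of the same cluster as Dlk1, was lower in shIno80 at day 4. Its signal was 3.95 and 3.70 in the day 2 control arrays, then 3.79 and 3.91 at day 4 and 3.51 and 3.25 at day 6. With shIno80 the corresponding arrays gave 3.69 and 3.51, then 3.19 and 3.33, then 3.49 and 3.18. The hairpins were apart at days 2 and 4 and overlapped at day 6. It fell by 0.60 ± 0.16 at day 4 (limma adjusted p = 0.0152), and differed by -0.22 ± 0.16 at day 2 and -0.05 ± 0.16 at day 6. The day 4 call ended without shNT replicate 2 (-0.53) or shIno80 replicate 1 (-0.53) of that day, and under quantile normalization (-0.44). At day 4 the 5 Meg3 probes differed by -0.70 to -0.16, and 2 of them were called lower. They disagreed at day 6: 4 differed by -0.09 to 0.24 and were not called, while the fifth rose by 0.94 ± 0.28 (limma adjusted p = 0.0234 over probes). That probe lies at chr12:107080192-107080251 on mm7 and was well above background on all 12 arrays. Which exon or transcript it reads was not analysed here.

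Grb10, an adaptor that dampens insulin and IGF signalling, rose with the day in shNT and differed between hairpins at day 4. The values were 1.72 and 1.69 in the day 2 control arrays, then 2.71 and 2.63 at day 4 and 3.31 and 3.40 at day 6. The shIno80 arrays of these days gave 1.86 and 1.80, then 3.30 and 3.06, then 3.40 and 3.45. The hairpins were apart at days 2 and 4 and overlapped at day 6. It rose in shIno80 by 0.52 ± 0.11 at day 4 (limma adjusted p = 0.00484), which all 3 of its probes shared, and differed by 0.12 ± 0.11 at day 2 and 0.07 ± 0.11 at day 6 (limma adjusted p = 0.64). With arrays scaled to their median, the day 4 difference was 0.38 and not called, and that at day 6 was -0.0037. With the mean of its probes, the day 6 difference was 0.26 and called (limma adjusted p = 0.0447).

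**Figure D2:**
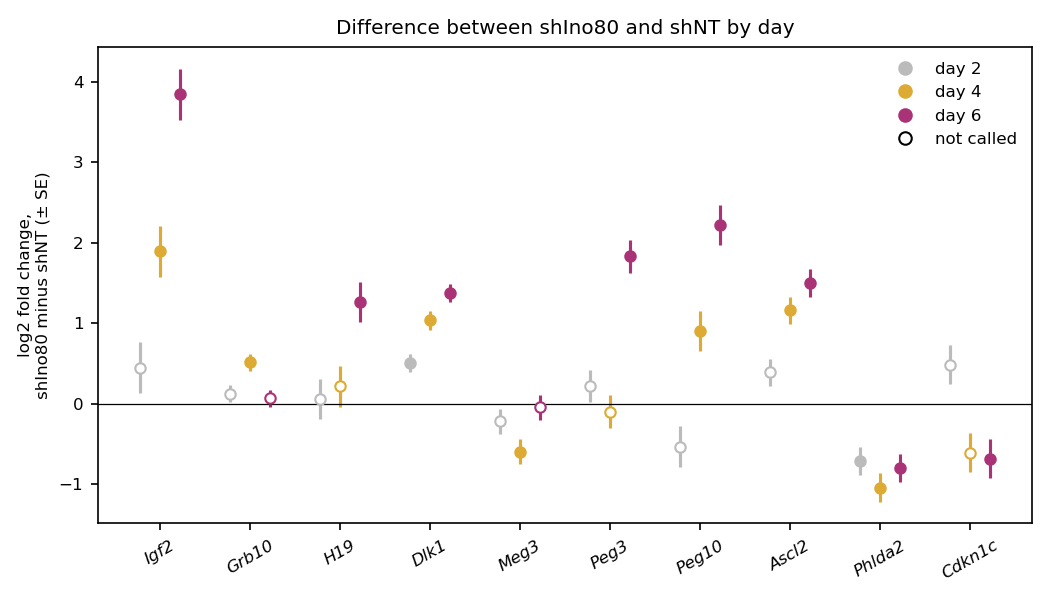
Log2 fold change of each member, shIno80 minus shNT, at days 2, 4 and 6, with error bars of 1 SE from the limma fit (2 arrays per group). Filled points were called at a limma adjusted p under 0.05 and open points were not. Igf2 goes from 0.44 to 3.85, while Phlda2 stays below 0 on each day.

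**Figure D3:**
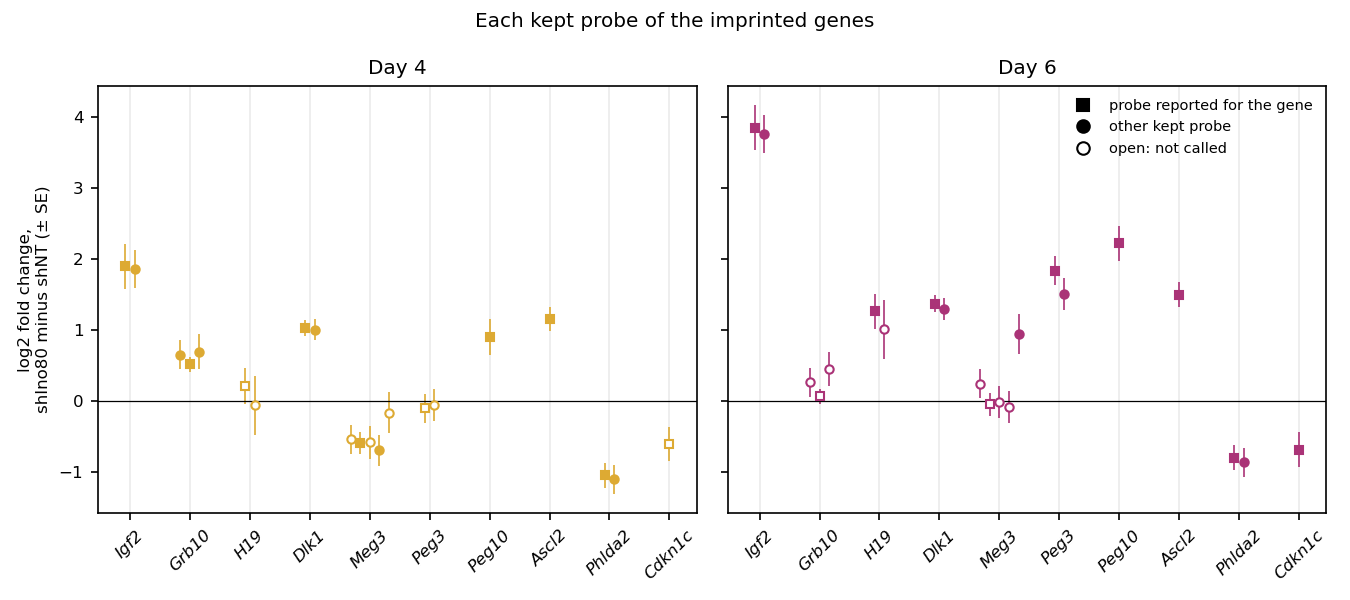
Log2 fold change (± SE) of each of the 21 kept probes of the members at days 4 and 6, from the fit over all kept probes. Squares are the probes reported for the genes, circles the other probes and open symbols those not called. The second H19 probe passed the filter only through shIno80 at day 6. The 2 Igf2 probes lie at 3.76 and 3.85 at day 6, and 1 of the 5 Meg3 probes lies at 0.94.

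Counted over probes, 9 of the 21 kept probes were called higher and 4 lower at day 4, when 20.4% and 21.4% of all kept probes were. At day 6, 10 were called higher and 3 lower, with 21.1% and 28.9% of all kept probes. The arrays of the hairpins did not overlap for 3 members higher and 3 lower in shIno80 at day 2 (24.9% and 21.5% of all genes), 6 and 3 at day 4 (35.0% and 40.1%), and 6 and 2 at day 6 (31.6% and 45.3%). By parental allele, all 4 paternally expressed members (Igf2, Peg3, Peg10 and Dlk1) were called higher at day 6, with a median of 2.03. Of the 6 maternally expressed members, H19 and Ascl2 were called higher and Cdkn1c and Phlda2 lower, with a median of 0.01. Of all genes, 21.0% were called higher and 29.5% lower at that day. Of 21 other paternally expressed imprinted genes measured, 8 were higher and 4 lower, with a median of 0.33. Of 18 other maternally expressed ones, 6 were higher and 3 lower, with a median of 0.17. The parental classes were assigned by list and not measured in these cells, and the difference between them was not tested.

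The size of the difference itself changed between days for 7 of the 10 members. Between days 2 and 6 it grew for Igf2 by 3.40 ± 0.45, Peg10 by 2.75 ± 0.35, Peg3 by 1.61 ± 0.29, H19 by 1.21 ± 0.36, Ascl2 by 1.11 ± 0.24 and Dlk1 by 0.87 ± 0.16 (limma adjusted p of 0.00112 to 0.0376), and 11.3% of all genes were called in that direction. For Cdkn1c it moved by -1.17 ± 0.34, from above 0 to below (limma adjusted p = 0.0365), with 15.8% of all genes called lower. Between days 2 and 4 only the difference of Peg10 changed by the test, by 1.43 ± 0.35 (limma adjusted p = 0.0305; 8.18% of all genes higher and 7.15% lower). Between days 4 and 6 only that of Peg3 did, by 1.93 ± 0.29 (limma adjusted p = 0.0135; 1.54% of all genes higher and 2.25% lower). The changes for H19 and Cdkn1c between days 2 and 6 each lost the call without any 1 of 10 arrays, for H19 all but shIno80 replicate 2 of day 2 and shIno80 replicate 1 of day 6, for Cdkn1c all but shNT replicate 2 and shIno80 replicate 1 of day 2. H19 then ranged from 0.78, without shIno80 replicate 2 of day 6, to 1.31, and Cdkn1c from -1.19 to -0.78. Both calls also ended with no filter on dim probes (limma adjusted p = 0.0721 and 0.0704), as did that of Peg10 between days 2 and 4 (limma adjusted p = 0.0623), and that of H19 ended with probes averaged per gene (limma adjusted p = 0.0825). That of Peg10 between days 2 and 4 lost it without any 1 of 8 arrays, all but shNT replicate 2 of day 2, shIno80 replicate 2 of day 4 and both shNT arrays of day 6 (1.10 to 1.61), and that of Peg3 between days 4 and 6 without shIno80 replicate 1 of day 4 (1.95) or shIno80 replicate 2 of day 6 (1.91).

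Several members also rose with the day in the control arm. From day 2 to day 4 in shNT, Igf2 rose by 2.51, Dlk1 by 2.40, Cdkn1c by 2.16, Phlda2 by 1.43, Grb10 by 0.96 and Peg3 by 0.82, while 7.63% of all genes were called higher and 6.72% lower. In shIno80, 7 members rose over the same days (20.7% of all genes, with 18.1% lower): Igf2 by 3.97, Dlk1 by 2.93, Ascl2 by 1.37, Grb10 by 1.35, Peg10 by 1.16, Phlda2 by 1.10 and Cdkn1c by 1.07. From day 4 to day 6 in shNT, Grb10 rose by 0.69 and Cdkn1c fell by 1.08, with 7.83% of all genes higher and 8.77% lower. In shIno80, Igf2 rose further by 1.89, Peg10 by 1.70, Peg3 by 1.48, H19 by 1.22 and Dlk1 by 0.39 (8.21% of all genes), and Cdkn1c fell by 1.15 (17.0% of all genes). Each day is 1 slide, so day and slide cannot be told apart in these comparisons.

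The members lie in 5 imprinted clusters, and 19 of their imprinted neighbours were measured. At day 6, 6 of the 19 were called higher and 4 lower, beside 21.0% and 29.5% of all genes, so these counts are near the background. In the distal chromosome 7 cluster, which holds H19, Igf2, Ascl2, Cdkn1c and Phlda2, the lipid transfer protein gene Osbpl5 rose by 3.76 ± 0.24, the tetraspanin Cd81 by 1.18 ± 0.16 and Tssc4 by 0.76 ± 0.11. Tspan32 fell by 1.10 ± 0.14 and the transporter Slc22a18, next to Phlda2, by 0.86 ± 0.14. Kcnq1 differed by -0.05 ± 0.15, its antisense Kcnq1ot1, the non-coding RNA that silences much of this cluster on the paternal allele, by 0.40 ± 0.36, and Nap1l4 by -0.16 ± 0.18, none of them called. Kcnq1ot1 ranged from 0.15, without shIno80 replicate 1 of day 6, to 0.64, without replicate 2, and Nap1l4 was called lower with probes averaged per gene (-0.30, limma adjusted p = 0.014). Th, counted among those lower, was not well above background in shIno80 at day 6, so its level there is only a bound and no fold is given. Its call (limma adjusted p = 0.0406) ended without any 1 of 9 arrays, all but both shIno80 arrays of day 2 and shNT replicate 2 of day 6 (limma adjusted p of 0.056 to 0.245). It also ended with the value table (-0.13, limma adjusted p = 0.353), the replicate block (limma adjusted p = 0.0567), no filter on dim probes (limma adjusted p = 0.072), outlier spots kept (limma adjusted p = 0.0515) and the 4 arrays of day 6 alone (limma adjusted p = 0.104).

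Beside Peg10 on proximal chromosome 6, the paternally expressed sarcoglycan gene Sgce rose by 2.46 ± 0.11 and the maternally expressed Asb4 by 1.47 ± 0.29 at day 6. Calcr (0.52 ± 0.29) and Ppp1r9a (0.23 ± 0.16) were not called. Calcr ranged from 0.13, without shNT replicate 2 of day 6, to 0.92, without replicate 1, when it was called, and Ppp1r9a from 0.081 to 0.38, without shIno80 replicates 1 and 2 of day 6. With the value table both were called higher (0.63 and 0.45). Beside Dlk1 and Meg3 on distal chromosome 12, the deiodinase gene Dio3 rose by 0.93 ± 0.29, a call that ended without shNT replicate 2 (0.74), shIno80 replicate 1 (0.88) or shIno80 replicate 2 (0.98) of day 6. The non-coding RNAs Rian (-0.19 ± 0.18) and Mirg (-0.83 ± 0.34) were not called. Mirg ranged from -1.35, without shIno80 replicate 1 of day 6, when it was called, to -0.31, without replicate 2, and was also called lower with median scaling (-0.90). At day 4 Rian and Mirg were called lower, as was Meg3. Beside Grb10, Ddc, an enzyme of dopamine and serotonin synthesis, fell by 1.30 ± 0.12. Beside Peg3, Zim1 (0.67 ± 0.47) and Usp29 (0.33 ± 0.32, or -0.05 without shNT replicate 2 of day 6) were not called. Zim1, which was well above background on only 5 of the 12 arrays, ranged from 0.093, without shNT replicate 2 of day 6, to 1.24, without replicate 1.

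**Figure D4:**
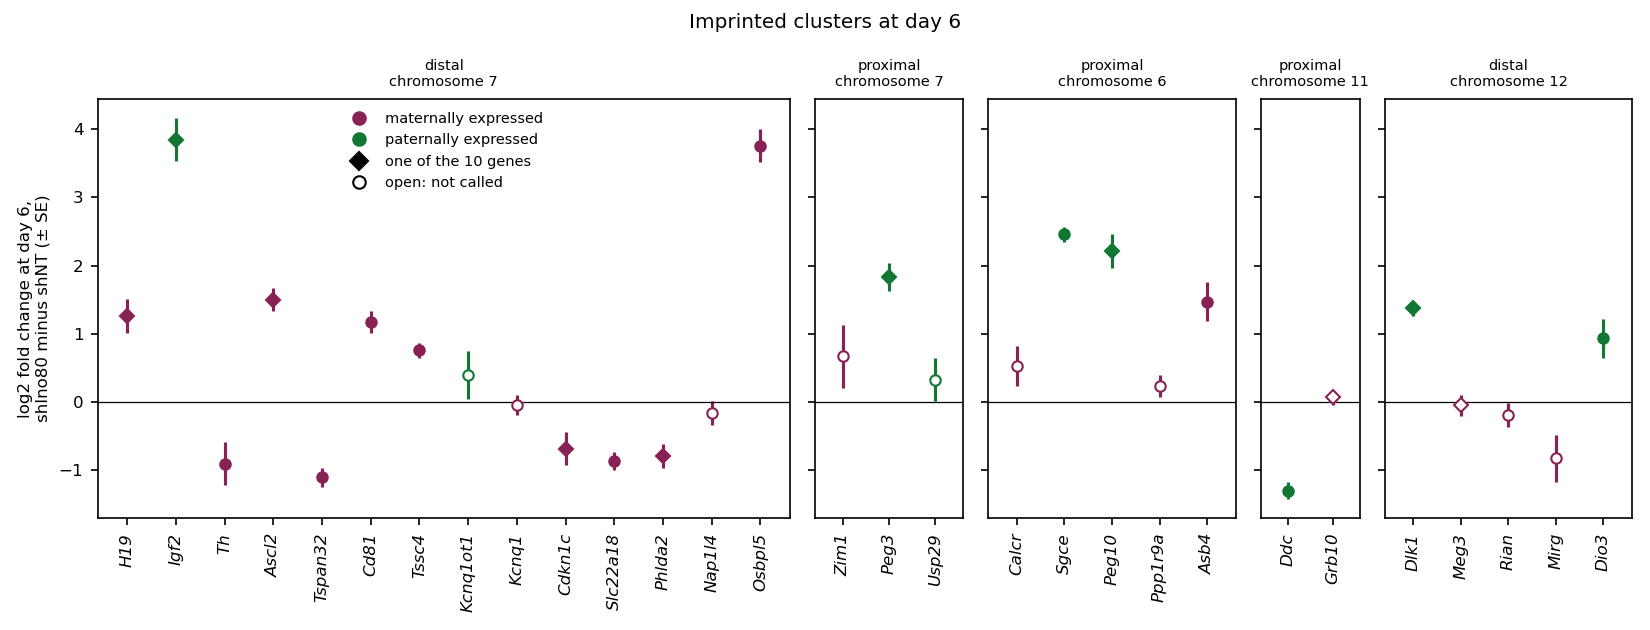
Log2 fold change at day 6, shIno80 minus shNT (± SE), of the members (diamonds) and their measured imprinted neighbours (circles), in the order of their probes along the genome within each cluster. Green marks genes listed as paternally expressed and purple maternally expressed, which was not measured in these cells, and open symbols were not called. On distal chromosome 7, Igf2 at 3.85 and Osbpl5 at 3.76 are the highest, while Cdkn1c, Slc22a18 and Phlda2 lie side by side below 0. Th, also in this cluster, was not well above background in shIno80 at day 6, so its point shows no measured fold.

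Over all other imprinted genes listed, 39 of 43 were measured, and 14 were called higher and 7 lower at day 6, against 14 and 6 at day 4 and 6 and 5 at day 2. Of all genes, 6.29% and 6.2% were called higher and lower at day 2, 20.9% and 21.3% at day 4, and 21.0% and 29.5% at day 6. Th is among the lower ones at day 6, and its call is a description only. The list's median at day 6 was 0.28, beside -0.14 for all genes. Outside the members' clusters, the zinc finger gene Plagl1 rose by 1.51 ± 0.31. Klf14 was at least 4.75-fold higher, since it was not well above background in shNT. The antisense RNA Airn rose by 2.92 ± 0.50 and was well above background on both shIno80 arrays and 1 shNT array. Mcts2 fell by 0.78 ± 0.15, the amino acid transporter Slc38a4 by 0.51 ± 0.12 and Mkrn3 by 0.44 ± 0.10. The Mkrn3 call ended without shIno80 replicate 2 of day 6 (-0.34), and Slc38a4 differed by -0.04 and was not called with the mean of its probes.

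Of 11 measured genes that protect or erase imprints, 8 were called lower and 1 higher at day 6, with a median of -0.85, while 29.5% of all genes were called lower and 21.0% higher. The demethylation enzymes Tet2 (-2.94 ± 0.26) and Tet1 (-1.66 ± 0.15) and the imprint-protecting Zfp57 (-1.84 ± 0.27) fell. Dppa3, which shields methylation in the early embryo, rose by 0.89 ± 0.27, a call that ended without shNT replicate 1, shNT replicate 2 or shIno80 replicate 2 of day 6 (0.64 to 0.97). Of the IGF axis, in which Igf2 is a ligand, 8 of 15 measured genes were called higher and 3 lower at day 6, with a median of 0.84, against the same shares of all genes. The receptor Igf1r rose by 1.88 ± 0.14, and Igf2r, itself imprinted, which clears the ligand, by 0.84 ± 0.10. The binding protein Igfbp6, which prefers Igf2, rose by 3.83 ± 0.20, the receptor substrate Irs1 by 3.41 ± 0.30 and the protease Pappa by 2.16 ± 0.38. Igfbp2 fell by 2.16 ± 0.21 and the RNA-binding Igf2bp2 by 1.46 ± 0.18. Igf1 was at least 2.24-fold lower, not well above background in shIno80, and lost the call without shIno80 replicate 1 of day 6 (-1.66).

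Markers of cell types moved at the same days. Of all genes, 6.29% were called higher and 6.2% lower at day 2, 20.9% and 21.3% at day 4, and 21.0% and 29.5% at day 6. All 8 ESC markers were called lower at days 4 and 6, with Nanog at -2.72 ± 0.30 and Esrrb at -2.53 ± 0.23 at day 6. The mean log2 signal of the list lay between 5.38 and 5.53 on the shNT arrays and between 3.41 and 3.63 on the shIno80 arrays of day 6. Of 14 measured trophoblast and placenta markers, 12 were called higher and 1 lower at day 6, with Esx1 at 5.92 ± 0.11 and the keratin Krt7 at 5.37 ± 0.26. Their mean lay between -2.58 and -2.40 in shNT and between 0.73 and 0.79 in shIno80, and Elf5 and Tpbpa were not well above background on both arrays of any group. Of 15 fibroblast markers, 8 were higher and 3 lower, with a list median of 1.12. The 2 largest changes were those of Col1a1 at 3.87 ± 0.13 and Dcn at 3.82 ± 0.34. Pdgfra, at -0.51 ± 0.16, was among the lower ones and is also in the endoderm list. The mean of the fibroblast list lay between -3.28 and -2.93 in shNT and between -1.90 and -1.85 in shIno80. Of 12 endoderm markers, 4 were higher and 2 lower, with Col4a1 at 3.31 ± 0.46 and Sparc at 2.41 ± 0.15 among those higher, Lama1 at -1.35 ± 0.17 and Pdgfra at -0.51 ± 0.16 lower, and a list median of -0.01. Of 9 mesoderm markers, 4 were higher and 2 lower, with Hand1 at 5.29 ± 0.13 and Kdr at 2.04 ± 0.27 among those higher, Mesp1 at -1.55 ± 0.24 and Myh6 at -1.09 ± 0.13 lower, and a list median of -0.23. These 4 lower markers were named after their values were seen. Hand1 is also in the trophoblast list. At day 2, when 1 member was called in each direction, 2 of the 14 trophoblast markers were higher and 2 lower, and 2 of the 8 ESC markers were lower, with a median of -0.44. The ESC list's mean then lay between 5.47 and 5.51 in shNT and between 4.92 and 5.01 in shIno80. The part of these cell type changes in the members' values was not tested.

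Across the 12 arrays, the genes whose signal ran closest to a member's, of 15602 with a current symbol, are given as a description. The 12 arrays share hairpins, days and slides. Igf2 ran closest to Dusp9 and Gak (Pearson r = 0.992 each), Dlk1 to Comp (0.9859) and Frem2 (0.9841), and H19 to Actc1 (0.9609) and Ildr2 (0.9545). Ascl2 ran closest to Tet3 (0.9886), Peg10 to Tmem115 (0.9756) and Rgs6 (0.9742), and Peg3 to Tbl1x (0.9626) and Cptp (0.9566). Phlda2 ran closest to Drc1 (0.9635) and Mon1a (0.9617), and Cdkn1c to Psmb10 (0.9707) and Stag2 (0.9618). Grb10 ran closest to Tspan7 (0.9939) and Smim10l2a (0.987), and Meg3, with the lowest values, to 4732465J04Rik (0.9181) and Slc51a (0.8976).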

How the data were processed

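Expression in J1 cells was measured on 12 one-colour Agilent arrays (3 slides of 4 arrays, 1 slide per day), scanned and extracted with Feature Extraction 9.5.3.1, per the file headers. The deposited scanner files hold spot intensity (processed, mean and background signals in the green columns, though the labels name Cy5), and the deposited value table holds log2 values with a normalization not stated in the sources used here. Each value table column matched 1 scanner file, and for 6 of 12 arrays that file was attached to another sample. Samples were taken from the value table's columns.

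The log2 processed signal minus the 75th percentile of the non-control spots of its array was averaged over the spots of a probe, without outlier spots. A probe was kept where some group had both arrays well above background, 28657 in all. The kept probe with the highest mean stood for a gene. Groups were compared with limma 3.58.1 in R 4.3.3 (1 mean per group) with Benjamini-Hochberg adjustment over 19184 genes at 0.05. "At least" folds compare the brighter group with the lowest signal well above background. The number of arrays limits the precision. On simulated data with 200 changed genes of 19184, 2-fold changes were found in 53, 62 and 54% of cases at days 2, 4 and 6. There 4-fold changes were found in 93, 93 and 91%, and 3.31, 3.13 and 7.64% of the calls were false. Far more genes were called in the data, 4034 higher and 5666 lower at day 6, so these rates need not hold for it.

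The members and lists were chosen with earlier results of these data known. The text names every member, imprinted neighbours in their clusters, for the other imprinted genes and the maintenance and IGF lists up to 3 of the largest rises and falls at day 6 (with Igf2r, Igf1r and Dppa3 always), 2 markers per list and the 2 genes of nearest pattern per member. For Ascl2, 1 of these 2 is not reported here. The other listed genes enter by counts. Alternatives were scaling, normalization, background correction, filters, probe rule, value table, file attachments, replicate block, single days and leaving out each array.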

Additional observations from a re-analysis of the deposited data

Results flagged for a closer look

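The difference between shIno80 and shNT changed between days for 7 of the 10 genes by a test of the change itself (limma, adjusted over all genes, 2 arrays per group). Between days 2 and 6 it moved by 3.40 for Igf2, 2.75 for Peg10, 1.61 for Peg3, 1.21 for H19, 1.11 for Ascl2, 0.87 for Dlk1 and -1.17 for Cdkn1c on the log2 scale. Between days 2 and 4 it moved by 1.43 for Peg10, and between days 4 and 6 by 1.93 for Peg3. Over all genes the change was called higher for 11.3% and lower for 15.8% between days 2 and 6. The shares were 8.18% and 7.15% between days 2 and 4, and 1.54% and 2.25% between days 4 and 6. Leaving out single arrays ended the calls of H19 and Cdkn1c between days 2 and 6. It also ended those of Peg10 between days 2 and 4 and Peg3 between days 4 and 6. Each day was a slide of its own, but each difference lies within a slide.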

How the results depend on the processing

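The deposited value table, quantile normalization, median scaling, the filters, the probe rule and the single-day fits kept Igf2, Dlk1 and Ascl2 called higher and Phlda2 called lower at days 4 and 6, and Peg3 and Peg10 called higher at day 6. Leaving out any 1 array gave 0 to 2, 4 to 5 and 6 to 6 members called higher and 0 to 1, 1 to 3 and 1 to 2 called lower at days 2, 4 and 6. For the change of the difference it gave 0 to 2 members between days 2 and 4, 0 to 3 between days 4 and 6 and 5 to 6 between days 2 and 6. For the other imprinted genes it gave 2 to 6, 8 to 14 and 11 to 14 higher and 3 to 4, 2 to 7 and 5 to 8 lower. Without 1 array, signs turned for H19 at day 2 (-0.13 to 0.24), Igf2 at day 2 (-0.045 to 0.94), Peg3 at day 4 (-0.40 to 0.20) and, at day 6, Meg3 (-0.21 to 0.11), Kcnq1 (-0.18 to 0.084), Usp29 (-0.050 to 0.71) and Rian (-0.44 to 0.054), none of which was called with all arrays.

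The day 2 calls of 1 member higher and 1 lower became 0 and 0 with median scaling, with no filter on dim probes and with the 4 arrays of day 2 alone, and the lower one became 0 with probes averaged per gene. The single-day fit of day 2 also left 0 and 0 other imprinted genes called, and no filter left 3 and 3. With no filter, 1 member was lower at day 6 and 0 had a changed difference between days 2 and 4. Quantile normalization left 1 member lower at day 4, and the value table left 1 lower at day 6 and 3 other imprinted genes lower at day 2. Members with a changed difference between days 2 and 4 and between days 4 and 6 numbered 4 and 2 with quantile normalization, 5 and 3 with the value table, 5 and 2 with probes well above background on all 12 arrays, and 3 and 2 with the mean of probes, against 1 and 1 here. Same-numbered arrays of the hairpins deviated together only weakly (r = 0.296, 0.117 and 0.083 at days 2, 4 and 6), so the numbers were not taken to pair the samples. With the replicate block these counts were 2 and 2, and the other counts of members were 1, 5 and 6 higher and 1, 2 and 2 lower.

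Signs of values that were not called also turned with the mean of probes for H19 at day 2 (-0.10), Meg3 (0.21) and Kcnq1 (0.10) at day 6, with median scaling for Grb10 at day 6 (-0.0037), with quantile normalization for Meg3 (0.12) and Nap1l4 (0.078), and with the value table for Meg3 (0.21), Kcnq1 (0.11), Nap1l4 (0.075) and Rian (0.038). The call of Cdkn1c at day 6 was lost with the value table (-0.45, limma adjusted p = 0.0683) or when dim probes stayed in (limma adjusted p = 0.078), and held at a limma adjusted p of 0.0495 with the 75th percentile taken over probes, an alternative chosen after seeing the data.

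The normexp background correction gave 0 and 0, 0 and 1, and 3 and 1 members higher and lower at days 2, 4 and 6, changed differences in 0, 0 and 2 members (days 2 to 4, 4 to 6 and 2 to 6), and 0 and 0, 4 and 1, and 6 and 2 other imprinted genes. Over all genes it called 0 and 5, 859 and 827, and 1229 and 1575. It turned the sign of H19 (-1.33), Igf2 (-0.45), Peg3 (-0.24), Ascl2 (-0.92), Dlk1 (-0.18) and Meg3 (0.10) at day 2, H19 (-0.25) at day 4, and Th (0.21) and Kcnq1 (0.24) at day 6. Spots with a very high local background lay in this fit, with a mean signal minus local background as low as -63918.8. With those backgrounds replaced, an alternative also chosen after seeing the data, 5 members had a changed difference between days 2 and 4 and 3 between days 4 and 6, H19 at day 2 was -0.10 and Meg3 at day 6 was 0.0046, and the counts of members by day were within 1.5 times those reported.

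With samples by the attachments of the scanner files, which exchange 1 array of each hairpin on each slide, all counts of members, of other imprinted genes and of changed differences were 0 (limma called 0 genes of all at each day, with 586, 166 and 374 at an unadjusted p under 0.05). Signs turned for H19 at day 4 (-0.062), Cdkn1c at days 4 and 6 (0.019 and 0.018), Peg3 at day 2 (-0.17), Peg10 at day 4 (-0.44), Phlda2 at days 2, 4 and 6 (0.42, 0.040 and 0.036), Ascl2 at days 2 and 6 (-0.054 and -0.15), Grb10 at days 2 and 4 (-0.041 and -0.16), Dlk1 at days 4 and 6 (-0.047 and -0.017), Meg3 at day 4 (0.13) and Ino80 (0.12, 0.16 and 0.19). The change of the difference turned for Igf2 (-0.63), Ascl2 (-0.10) and Dlk1 (-0.22) between days 2 and 6 and for Peg10 (-0.0042) between days 2 and 4. At day 6 it turned Tssc4 (-0.045), Kcnq1 (0.16), Kcnq1ot1 (-0.22), Slc22a18 (0.077), Osbpl5 (-0.25), Zim1 (-0.61), Usp29 (-0.45), Calcr (-0.41), Sgce (-0.15), Ppp1r9a (-0.17), Asb4 (-0.19), Ddc (0.21), Dio3 (-0.24), Klf14 (-1.07), Airn (-0.60), Mcts2 (0.094), Slc38a4 (0.0018), Tet2 (0.47), Zfp57 (0.35), Tet1 (0.24), Igfbp6 (-0.19), Irs1 (-0.34), Pappa (-0.30), Igf1r (-0.073), Igf1 (0.62), Igfbp2 (0.066), Nanog (0.35), Esrrb (0.51), Esx1 (-0.048), Col1a1 (-0.22), Dcn (-0.44) and Hand1 (-0.21). For the other changes listed here the cause was not tested.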

Other observations

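Pappa2, a protease of IGF-binding proteins that was singled out after its values were seen, was well above background only on the 2 shIno80 arrays of day 4, where it was at least 4.35-fold higher than in shNT. It was kept only through that group, so the difference is a description with no test. It was not well above background in either group at day 6.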
